A study of Mus musculus with 8 samples.

Results

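Steroid hormones are built from cholesterol in the adrenal gland and the gonads, and the liver is the main organ that takes them out of action. Hydroxysteroid dehydrogenases switch a hydroxyl group and a keto group on the steroid, which turns a hormone on or off at its receptor, and reductases saturate the ring so that the product can be conjugated and excreted. In rodents many of these liver enzymes differ between the sexes, under the control of growth hormone pulses and androgens. The 10 genes described here are Hsd3b2, Hsd3b3, Hsd3b5, Hsd11b1, Hsd17b2, Hsd17b6, Hsd17b13, Srd5a1, Akr1c6 and Cyp17a1. Cyp17a1 encodes a cytochrome P450 of steroid synthesis and the others encode dehydrogenases or reductases. They were listed by name and matched through the accession of each probe, which gave 12 probes of 55681 on the array and 10 of 14313 genes tested.

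RNA from 8 hepatocellular carcinomas (HCC) of male mice labelled miR-122 KO was set against liver RNA of age-matched male mice labelled miR-122 floxed, and both kinds of mice had a background labelled C57BL/6J and 129S/Svj mixed. miR-122 is the most abundant microRNA of hepatocytes. There were 8 Agilent arrays of 2 colours, each with Cy5 for 1 tumor and Cy3 for the control liver. A log2 ratio here is tumor over control on the same array, and a level is the normalized log2 signal of 1 channel. No dyes were swapped, so an effect of the dye and an effect of the tumor cannot be told apart. The labels give no age in numbers, no Cre line, and no word on whether the floxed livers, which 1 protocol calls WT, were 8 animals or a pool. They do not say whether any tumors came from 1 mouse. The knockout and the tumor cannot be told apart either, as no tumor-free knockout liver was measured here.

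All 12 probes were well above background in both channels on all 8 arrays. All 8 arrays lay on 1 slide, and 40.0% to 53.3% of spots were well above background in the tumor channel, against 46.5% to 55.5% in the control channel. The upper quartile of the tumor signal was 213 on array 8, the dimmest, and 378 to 606 on the others. The control channels of arrays 1 and 2 departed from the mean control together (r = 0.672 across genes, against at most 0.206 between any other controls). Without both arrays the same 6 genes were lower in tumor as are given below. Xist was not well above background in any tumor, and 1 of its probes was so in 2 controls, at 6.43 or less. The Y-linked genes Ddx3y and Eif2s3y were well above background in both channels of all arrays. Of 8 hepatocyte markers, 3 fell in tumor with mean ratios of -2.86 (Fabp1), -1.79 (Serpina1a) and -1.05 (Apoa1), and 5 did not pass the test. The median ratio over these 8 was -0.95, and albumin (Alb) had -0.29 ± 1.04 (SD, n = 8). Of 7 stellate and fibroblast markers 5 rose, Col1a1 most (3.65 ± 1.20), and of 6 bile duct markers 3 rose, Spp1 most (3.34 ± 1.04). Of 5 macrophage markers tested, 3 fell, Clec4f most (-3.33 ± 1.11). The part of these cell types in the ratios below was not tested. In tissue RNA, fewer cells of a type and less RNA per cell cannot be told apart.

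Of the 10 genes, 6 were lower in tumor, 0 were higher and 4 did not pass the test (limma over all 14313 genes, Benjamini-Hochberg adjusted p under 0.05 and a log2 ratio of at least 1 in size). Over all genes tested, 5.94% were lower and 9.54% higher. The median ratio was -1.40 over the 10 genes and 0.03 over all genes. The 6 genes were Akr1c6, Hsd3b5, Srd5a1, Hsd3b2, Hsd17b2 and Hsd3b3, each with a ratio below 0 on all 8 arrays. Hsd11b1, Hsd17b6, Hsd17b13 and Cyp17a1 had ratios on both sides of 0.

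**Figure D1:**
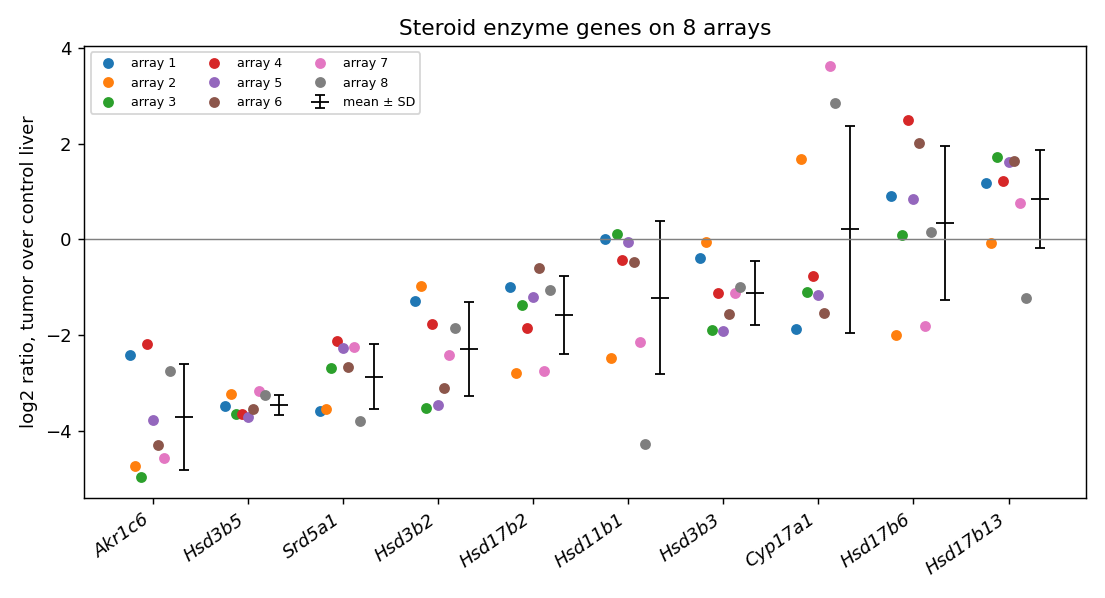
Log2 ratio of tumor over control liver for the 10 genes (horizontal axis, ordered by mean) on each of 8 arrays (coloured points), with the mean and SD in black. Hsd3b5 holds its 8 points between -3.70 and -3.17, while Cyp17a1 runs from -1.87 to 3.61, with arrays 2, 7 and 8 above 0.

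Of the genes described, 3 belong to the Hsd3b family and lie side by side on mouse chromosome 3. Hsd3b2 and Hsd3b3 encode enzymes that oxidise and isomerise the first steroid made from cholesterol and its relatives. In mice Hsd3b5 is a ketosteroid reductase of male liver, which works in the opposite direction. In the GRCm38.p6 annotation Hsd3b5 spans chr3:98618636-98645534, Hsd3b2 chr3:98711107-98724543 and Hsd3b3 chr3:98741476-98764540, all on the minus strand. The other genes lie on chromosome 1 (Hsd11b1), 5 (Hsd17b13), 8 (Hsd17b2), 10 (Hsd17b6), 13 (Srd5a1 and Akr1c6) and 19 (Cyp17a1). The 250 bases before each start, from RefSeq on that build, are shown because the 3 genes moved together in the control livers. They come from chr3:98645535-98645784 for Hsd3b5, chr3:98763129-98763378 for the first of the pair of starts of Hsd3b3, and chr3:98724544-98724793 for Hsd3b2. Each is written 5′ to 3′ on the minus strand, with the start just after the last base. Capitals mark the 24 bases that Hsd3b5 and Hsd3b3 share without a break.
Hsd3b5: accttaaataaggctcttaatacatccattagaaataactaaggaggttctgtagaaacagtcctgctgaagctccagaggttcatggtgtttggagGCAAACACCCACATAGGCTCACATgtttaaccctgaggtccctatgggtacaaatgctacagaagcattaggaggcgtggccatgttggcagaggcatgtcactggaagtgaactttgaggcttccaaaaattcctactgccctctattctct
Hsd3b3: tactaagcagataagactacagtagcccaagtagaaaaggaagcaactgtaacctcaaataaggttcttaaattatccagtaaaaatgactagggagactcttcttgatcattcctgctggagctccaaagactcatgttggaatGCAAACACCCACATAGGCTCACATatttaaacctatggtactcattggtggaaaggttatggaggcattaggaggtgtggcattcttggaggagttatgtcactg
Hsd3b2: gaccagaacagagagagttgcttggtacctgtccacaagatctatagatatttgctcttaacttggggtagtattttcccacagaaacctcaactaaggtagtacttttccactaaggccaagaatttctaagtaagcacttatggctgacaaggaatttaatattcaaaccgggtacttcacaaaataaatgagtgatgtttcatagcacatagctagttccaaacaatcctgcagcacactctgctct
Hsd3b3 and Hsd3b5 were identical at 154 of 204 aligned columns (75.5%). Hsd3b2 was identical to Hsd3b5 at 148 of 271 columns (54.6%) and shared no unbroken run over 8 bases with it. The letters TTCNNNGAA (a STAT motif), CAAAGTCCA (an HNF4 motif) and TTGNNNCAA (a C/EBP motif) were searched on both strands in the 10 windows that RefSeq gave for 8 of the genes. Hsd17b2 and Cyp17a1 had no entry. None of the 10 windows held these letters, and 7.02%, 0.384% and 5.02% of 32851 mouse promoter windows did. The steroid receptor half-site TGTTCT, in 16.1% of all windows, was found, among these windows, before Hsd3b2 alone, as AGAACA 246 to 241 bases before the start. TATAAA, in 12.4% of all windows, was found among them before Akr1c6 alone. The TTCNNNGAA and TTGNNNCAA motifs read the same on both strands, and no motif overlapped another.

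Hsd3b5 had tumor levels of 7.22, 7.13, 10.85, 10.78, 11.06, 10.95, 10.61 and 10.59 on arrays 1 to 8. The control levels on the same arrays were 10.68, 10.36, 14.48, 14.42, 14.76, 14.49, 13.77 and 13.83. Both channels were far lower on arrays 1 and 2 than on the other 6, and the tumor range reached above the control levels of those 2 arrays. The ratio was -3.45 ± 0.21 (SD, n = 8), an 11.0-fold lower level in tumor (adjusted p = 1.61e-08). The SD of Hsd3b5 was 1.69 in the tumor channel and 1.78 in the control channel, larger than in 99.3% and 99.8% of genes tested. The SD of its ratio, by contrast, was larger than in only 15.8% of genes. That Hsd3b5 varied within both channels was known when the genes were chosen. These ranks and the correlation below are therefore no independent support. Of the 850 genes lower in tumor, 10 had a smaller SD of the ratio, and the median over the 850 was 0.63. The small SD of the Hsd3b5 ratio depends on the processing. With the authors' processed signals its ratios were -4.26 and -4.10 on arrays 1 and 2 and -3.66 to -3.22 on the others.

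Tested in every gene over 8 arrays, the correlation of the channels passed for 1 of the 10 genes, Hsd3b5 (exact permutation test, two-sided, adjusted p = 0.038 over 14304 genes). It passed with a positive sign in 0.217% of genes and with a negative sign in 0.014%. Arrays 1 and 2 stand apart, so the coefficient is given within arrays 3 to 8 alone. There Pearson's r was 0.954 (exact permutation p = 0.00417) and Spearman's rho 0.943 (exact permutation p = 0.0167, n = 6). After adjustment over all genes the exact permutation p for r within these 6 arrays was 0.281, and none of the 14304 genes passed, the lowest adjusted p being 0.278. With 6 arrays the exact p cannot go low enough for a single gene to pass over so many genes. This failure therefore cannot show what arrays 1 and 2 add to the adjusted result. Some other genes that were high in 1 channel of an array were raised in the other channel too, and some were not. Acta1, an actin of skeletal muscle, had levels of 9.64 in tumor and 13.81 in control on array 8, and at most 6.74 in either channel on the others. Cyp11a1, which makes pregnenolone in steroid-producing glands, had 13.53 in tumor and 10.35 in control on array 2. Star, in contrast, had 8.95 in tumor and 6.49 in control on array 7, and Cyp17a1 had 13.11 in tumor and 10.25, its lowest control, on array 8. On the same array 8, Cyp11a1 had 12.16 in tumor and 9.60 in control. Whether signal passed between the channels was not tested.

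Hsd3b2 was measured by a pair of probes. The brighter one had tumor levels of 8.35 (lowest), 9.31 (median) and 10.76 (highest), against 9.63, 12.29 and 12.84 in control liver. Tumor levels were below the lowest control on 6 of 8 arrays, the lowest controls being those of arrays 1 and 2 at 9.63 and 9.94. The ratio was -2.30 ± 0.98, 4.91-fold lower in tumor (SD, n = 8, adjusted p = 0.000213), and without arrays 1 and 2 it was -2.68. The other probe gave -2.50 ± 0.97 (adjusted p = 0.000163 in the fit over all probes), where 4.66% of all probes were lower and 6.63% higher in tumor. In that fit 7 of the 12 probes were lower and 0 higher. Single arrays differed between both probes, as on array 3 with -3.52 and -1.99.

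Hsd3b3 had tumor levels of 11.96 (lowest), 12.69 (median) and 13.29 (highest), against 12.16, 14.13 and 14.64 in control liver. Only 2 tumors lay below the lowest control, and the ratios on arrays 1 and 2 were -0.38 and -0.06, the nearest to 0. The ratio was -1.13 ± 0.67, 2.19-fold lower in tumor (SD, n = 8, adjusted p = 0.0016). Without arrays 1 and 2 it was -1.43 (adjusted p = 0.00051), and on the arrays of row 1 of the slide alone it was -0.86 and missed the threshold (adjusted p = 0.0753). Hsd3b genes are close copies of each other and the files hold no probe sequences, so probes may have read more than 1 of them.

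**Figure D2:**
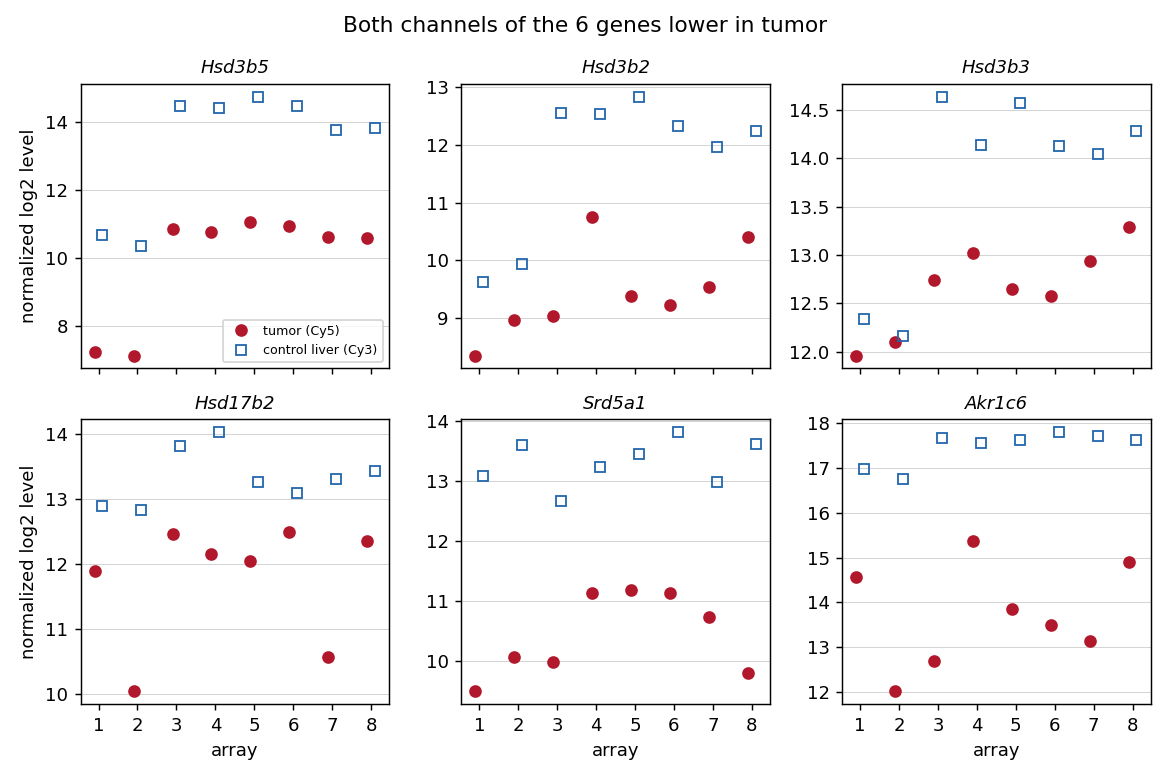
Normalized log2 level (vertical axis, own scale in each panel) in tumor (filled circles) and control liver (open squares) on arrays 1 to 8 for the 6 genes lower in tumor. The controls of arrays 1 and 2 are low in the 3 Hsd3b genes and in Akr1c6, and the tumor points of Hsd3b5 are low on those arrays too.

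Genes outside the 10 were ranked by the likeness of their pattern to that of Hsd3b5, as Pearson's r over the 8 arrays, and this is a description. In the control channel (12586 genes compared) the nearest were Casd1 (0.988), Wwox (0.986), Rdh11 (0.979), Cmtm6 (0.978) and Efemp2 (0.976). Of the 10 genes themselves, Hsd3b2 (0.989), Hsd3b3 (0.982) and Akr1c6 (0.958) had high values there, and Cyp17a1 ran the other way (-0.913). Arrays 1 and 2 carried much of this. Within arrays 3 to 8 the 5 genes had r between 0.128 (Rdh11) and 0.775 (Cmtm6). On those arrays Hsd3b2 had 0.890, Hsd3b3 0.559, Akr1c6 -0.09 and Cyp17a1 0.309. In the tumor channel (11369 genes) the nearest were Sdc4 (0.979), Akap1 (0.921), Mfsd4b1 (0.918), Plscr2 (0.917) and Slc46a3 (0.914). Within arrays 3 to 8 these lay between -0.443 (Sdc4) and 0.549 (Plscr2). Of the Hsd3b genes, Hsd3b2 had 0.590 in the tumor channel and Hsd3b3 0.817. Within arrays 3 to 8 these were -0.507 and -0.855, opposite to Hsd3b5. For the ratio (11203 genes) the nearest were Clic4 (0.982), Lepr (0.975), Spin1 (0.971), Mbl2 (0.971) and Dis3l2 (0.968). These 5 stayed between 0.973 and 0.983 within arrays 3 to 8. Like Hsd3b5 each had its 3 highest ratios on arrays 2, 7 and 8. With the authors' processed signals this did not hold for Hsd3b5 on array 2, at -4.10 against -3.22 and -3.23 on arrays 7 and 8. Of the 10 genes, Cyp17a1 was nearest for the ratio (0.873, and 0.952 within arrays 3 to 8). Hsd11b1 ran farthest the other way (-0.83 and -0.857). The Hsd3b5 ratio matched here ran only from -3.70 to -3.17, while that of Mbl2 ran from -5.52 to -0.39. The arrays of a channel share the slide and the normalization.

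Akr1c6 and Srd5a1 are reductases. The Akr1c6 enzyme interconverts keto and hydroxy forms of estrogens and androgens in mouse liver, and Srd5a1 reduces testosterone to dihydrotestosterone and also acts on glucocorticoids. Akr1c6 had tumor levels of 12.02 (lowest), 13.67 (median) and 15.37 (highest), against 16.75, 17.63 and 17.79 in control liver. The groups did not overlap. The share of all genes tested that separate in this way is not given, so for each of the 10 genes this is a description. The ratio was -3.71 ± 1.11, 13.1-fold lower in tumor (SD, n = 8, adjusted p = 2.66e-05), and of the 10 genes this was the lowest mean. Single tumors ran from -4.97 on array 3 to -2.19 on array 4.

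Srd5a1 had tumor levels of 9.50 (lowest), 10.40 (median) and 11.18 (highest), against 12.66, 13.35 and 13.81 in control liver. Here too every tumor lay below every control. The ratio was -2.86 ± 0.68, 7.27-fold lower in tumor (SD, n = 8, adjusted p = 8.24e-06). Arrays 8, 1 and 2 had the lowest ratios, with -3.79, -3.59 and -3.54.

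Hsd17b2 and Hsd17b6 act on sex steroids. Hsd17b2 oxidises estradiol to estrone and testosterone to androstenedione, which lowers both hormones. Its tumor levels were 10.04 (lowest), 12.11 (median) and 12.50 (highest), against 12.83, 13.28 and 14.03 in control liver, with no overlap. The ratio was -1.58 ± 0.82, 2.99-fold lower in tumor (SD, n = 8, adjusted p = 0.000684). Tumors 2 and 7 were the lowest, with ratios of -2.79 and -2.74, and the others lay between -1.86 and -0.60.

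Hsd17b6 oxidises reduced androgens back to dihydrotestosterone and also takes retinol-like substrates. Tumor levels were 8.35 (lowest), 11.97 (median) and 13.46 (highest), against 10.24, 11.43 and 12.27 in control liver. Tumors 2 and 7 lay below all controls, and 4 tumors lay above all of them. The ratio of 0.34 ± 1.61 (SD, n = 8) did not pass the test (adjusted p = 0.578). The spread between tumors was larger than in 99.4% of genes and that between controls larger than in 97.0%.

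Hsd11b1 regenerates active glucocorticoid from its inert keto form inside the endoplasmic reticulum of hepatocytes. Its tumor levels were 15.64, 13.32, 15.63, 15.29, 15.56, 15.07, 13.70 and 11.78 on arrays 1 to 8, against 15.51 (lowest), 15.67 (median) and 16.06 (highest) in control liver. Tumors 1, 3 and 5 lay within the control range and the other 5 below it, with tumors 2, 7 and 8 far below. The ratio of -1.21 ± 1.59 (SD, n = 8) missed the threshold (adjusted p = 0.0558). On array 8 it was -4.28, on array 2 -2.47 and on array 7 -2.15, and on the others between -0.47 and 0.12. The call turned on small changes of setting: without array 3 the ratio was -1.41 (adjusted p = 0.049), and without array 8 it was -0.78 (adjusted p = 0.0812). The control SD of 0.18 was near the middle of all genes, and the tumor SD of 1.42 exceeded 98.5% of them.

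Hsd17b13 encodes a protein of hepatocyte lipid droplets with retinol dehydrogenase activity. Tumor levels of the brighter probe were 13.21 (lowest), 14.83 (median) and 15.09 (highest), against 13.31, 13.54 and 14.43 in control liver. On 5 arrays the tumor lay above all controls, and tumor 8 lay below all of them. The ratio was 0.85 ± 1.02 (SD, n = 8, adjusted p = 0.0425), under the size a call requires. The adjusted p was over 0.05 in 12 of 23 alternatives, and was 0.101 without array 3. Without array 8 the ratio was 1.15 (adjusted p = 0.00173) and Hsd17b13 was called higher. The second probe, of another transcript, gave 0.73 ± 0.49, above 0 on all 8 arrays (adjusted p = 0.00418 in the fit over probes) and also under that size. Its tumor levels were 7.00, 7.20, 8.15, 7.46, 7.79, 7.54, 7.86 and 7.46, so that tumor 1 was lowest here and tumor 8 was not.

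Cyp17a1 makes precursors of cortisol-type and sex steroids in gonads and, in some species, the adrenal gland, and mouse liver transcribes it too. Its tumor levels were 10.55, 14.09, 9.86, 9.72, 9.37, 9.55, 14.39 and 13.11 on arrays 1 to 8. The control levels were 12.42, 12.41, 10.96, 10.49, 10.54, 11.08, 10.77 and 10.25. Tumors 2, 7 and 8 lay above all controls and the other 5 tumors each lay below the control on their own array. The mean ratio of 0.21 ± 2.16 (SD, n = 8) did not pass the test (adjusted p = 0.799), and its sign turned to -0.27 without array 7 and -0.16 without array 8. The tumor SD of 2.15 exceeded 99.7% of genes.

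The 3 tumors high in Cyp17a1 were the 3 lowest in Hsd11b1 and in the brighter Hsd17b13 probe, though not in its second probe, and 2 of them, tumors 2 and 7, were the lowest in Hsd17b6 and Hsd17b2. These 2 tumors also departed from the mean tumor together (r = 0.516 across genes). Of 11 markers of adrenal and gonad cells, 5 were tested. Their mean level in tumors 2, 7 and 8 was 9.59, 9.29 and 9.63, and in the other tumors 7.22 to 7.68. In control liver it was 7.74 to 8.69 on arrays 1 to 7 and 9.71 on array 8. Cyp11a1 was at 13.53, 10.79 and 12.16 in these 3 tumors and at most 6.44 in the others. Not all of the list followed: Nr5a1, a regulator of steroid glands, was at 7.28, 7.53 and 7.86 in these tumors and 7.13 to 7.78 in the others, and Cyp21a1 was at 11.20 in tumor 6 and 11.14 in tumor 7. Hsd3b6 was at 7.40 in tumor 2, within the others. On the same 3 arrays the control levels of Cyp11a1 were 10.35, 7.99 and 9.60, and at most 6.12 elsewhere. Star, which carries cholesterol into mitochondria, was at 8.32, 8.95 and 6.97 in these 3 tumors and at most 6.58 in the others. The value in tumor 8 was not well above background. Control levels of Star on the same 3 arrays were 6.59, 6.49 and 8.16, so on array 8 the control was the higher. Hsd17b3, the testis enzyme that makes testosterone, was well above background in tumors 2 and 7 alone among tumors (7.69 and 6.80). Among controls it was so on arrays 3, 6 and 8, at 6.59, 6.63 and 6.45. Cyp11b1, Cyp11b2 and Mc2r, which are typical of the adrenal cortex, were not well above background in any tumor. Control 8 had Cyp11b1 at 9.10, Mc2r at 6.78 and Hsd3b1 at 11.25, with Hsd3b1 at 10.35 in tumor 8.

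In their mean level, bile duct markers followed the same split. The mean level of 6 bile duct markers was 8.92, 8.56 and 8.05 in tumors 2, 7 and 8 and 10.32 to 10.55 in the other tumors, against 7.79 to 8.47 in control liver. Not every marker kept to it: Krt19 was at 7.90 in tumor 8 and 7.63 in tumor 1, and Cldn7 at 11.19 in tumor 2 and 11.16 in tumor 5. Skeletal muscle markers stood apart on array 8 alone. The 2 tested of 8 listed averaged 9.95 in tumor and 13.20 in control on array 8. On the other arrays they averaged 6.59 to 6.91 in tumor and 6.83 to 7.19 in control. Stellate and fibroblast markers did not follow the split, with mean levels of 11.14, 10.93 and 9.54 in tumors 2, 7 and 8 and 10.22 to 10.70 in the others. The part of these cell types in the ratios of Cyp17a1, Hsd11b1 and Hsd17b13 was not tested.

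**Figure D3:**
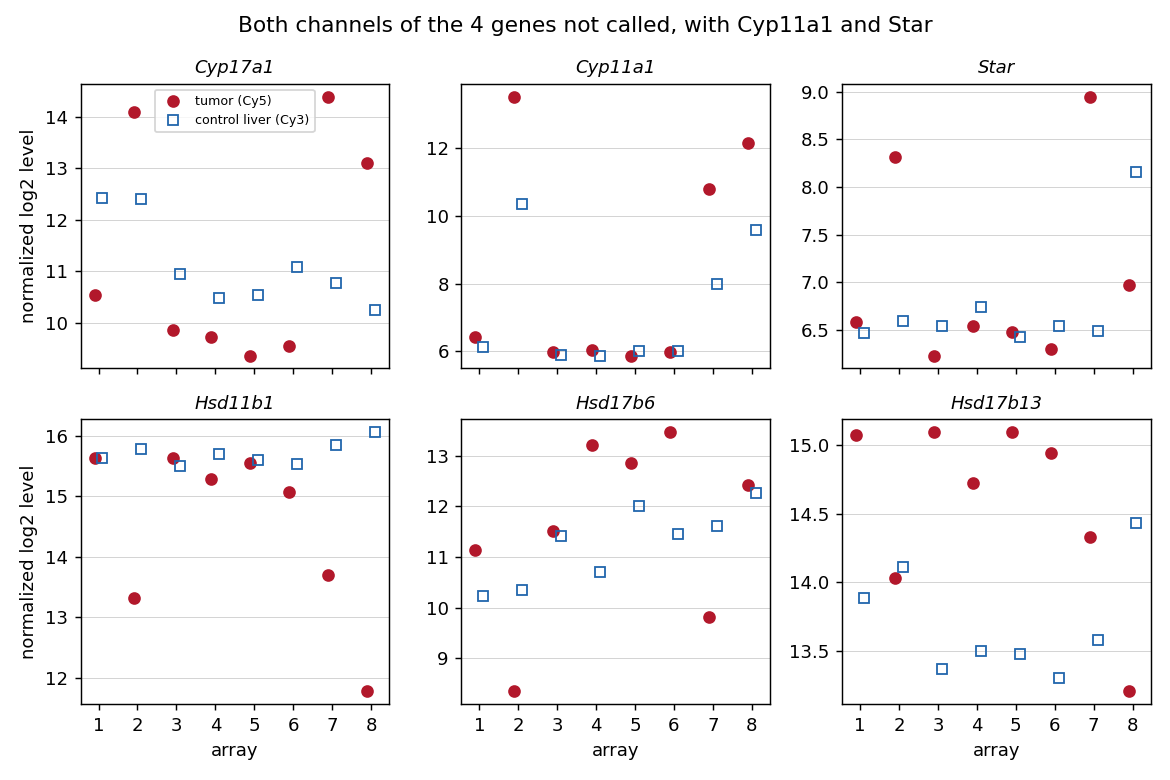
Normalized log2 level (vertical axis, own scale in each panel) in tumor (filled circles) and control liver (open squares) on arrays 1 to 8 for the 4 genes not called and for the steroid-gland genes Cyp11a1 and Star. Tumors 2, 7 and 8 are high in Cyp17a1 and Cyp11a1 and low in Hsd11b1 and in the brighter Hsd17b13 probe, which is the one plotted.

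**Figure D4:**
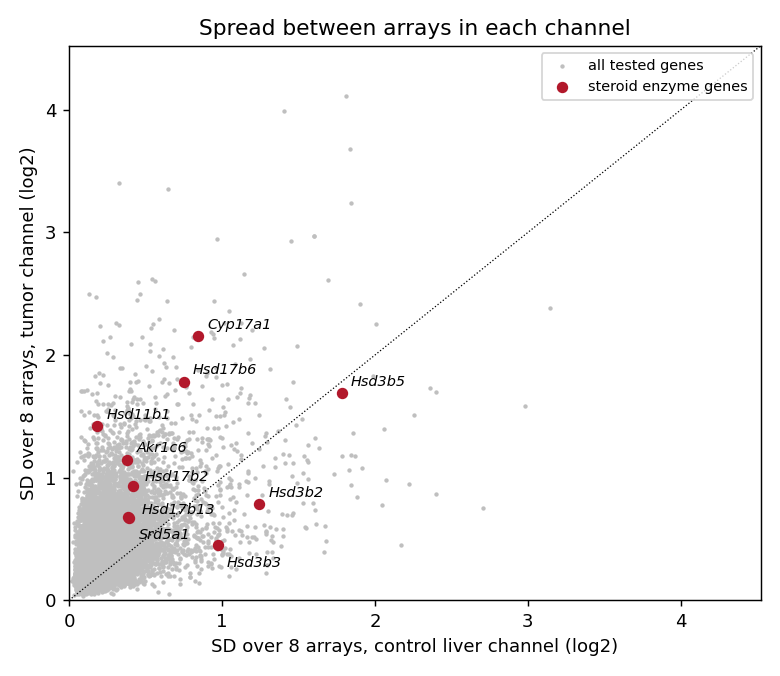
SD over 8 arrays in the tumor channel (vertical axis, log2) against the control channel (horizontal axis, log2) for all genes tested (grey) and the 10 steroid enzyme genes (red), with a dotted line of equal SD. Hsd3b2, Hsd3b3 and Hsd3b5 have control SDs of 1.24, 0.97 and 1.78 and lie right of the line, and Cyp17a1, Hsd17b6 and Hsd11b1 lie well above it.

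Among other hydroxysteroid dehydrogenases, 6 of 16 tested genes were lower in tumor, 1 was higher and 9 did not pass. The shares over all genes, for this and the further lists, were 5.94% lower and 9.54% higher. Their median ratio was -0.91, and they ran from -2.29 to 1.09. Hsd3b7, which acts early in bile acid synthesis, had a ratio of -2.29 ± 0.31 (SD, n = 8, adjusted p = 8.86e-07). Rdh7, a retinol and steroid dehydrogenase, had -1.59 ± 0.62, and Hsd3b6, another Hsd3b gene, -1.49 ± 0.81. Hsd3b6 was low on arrays 1 and 2 as well, with control levels of 7.73 and 7.68 there and 9.27 to 10.11 on the others. Rdh9, a near relative of Hsd17b6, was the 1 gene higher (1.09 ± 0.99). H6pd, which supplies the reducing cofactor of Hsd11b1, had -0.87 ± 0.32 (adjusted p = 0.00021) and stayed under the size a call requires.

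Of 9 other steroid reductases tested, 2 were lower and 1 higher (median -0.35, range -1.70 to 2.03), beside 5.94% and 9.54% of all genes. Akr1c14, a reductase of keto groups on reduced steroids, fell by 1.70 ± 0.50 on the log2 scale. Akr1c18, which inactivates progesterone in mice, rose by 2.03 ± 1.21. Akr1c6 and Akr1c18 thus had called ratios of opposite sign. The Akr1c genes are close copies too, and whether their probes read each other was not tested.

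Of 14 steroid cytochromes and electron donors, 4 were lower and 0 higher (median -0.20), beside 5.94% and 9.54% of all genes. Cyp7b1, a hydroxylase of oxysterols and steroids, had -2.65 ± 1.63, Cyb5b, a mitochondrial cytochrome, -1.66 ± 0.73, and Stard5, a sterol carrier, -1.38 ± 0.41. The fourth was Cyb5a (-1.11 ± 0.63), whose product promotes the lyase reaction of Cyp17a1. Of 17 genes of steroid conjugation, 5 were lower and 1 higher (median -0.12). The sulfotransferases Sult2a8 and Sult2a7 had -6.35 ± 0.77 and -2.70 ± 1.89 (the second well above background in 7 of 8 tumors), and the glucuronosyltransferase Ugt2b1 had -4.29 ± 1.06. The gene higher was Sult2b1, a sterol sulfotransferase (1.84 ± 0.92, well above background in 7 tumors and 6 controls).

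Of 12 steroid receptors and carriers, 2 were lower and 1 higher (median -0.10), beside 5.94% and 9.54% of all genes. The nuclear receptor Nr1i3 had -2.41 ± 1.05 and the estrogen receptor Esr1 -1.67 ± 0.53, well above background in 7 tumors. Shbg, the plasma carrier of sex steroids, had 2.14 ± 1.37, and was well above background in 6 tumors and 5 controls. The glucocorticoid receptor Nr3c1 (-0.42 ± 0.29) was below the size a call requires. Of 17 genes that glucocorticoids induce in liver or other cells, 5 were higher and 4 lower (median 0.29). Lcn2 (2.10 ± 0.29), Igfbp1 (1.94 ± 2.11) and Sgk1 (1.64 ± 1.03) had the largest ratios in size among those called. The mean ratio of the list on arrays 1 to 8 was -0.89, 0.41, -0.91, -1.06, -0.42, 0.26, 0.94 and 2.29, highest on arrays 8, 7 and 2, where Hsd11b1 was lowest in tumor. That difference between tumors was not tested.

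Of 24 male-biased liver genes, 19 were lower in tumor and 0 higher (median -2.72), beside 5.94% and 9.54% of all genes. Mup3, a urinary protein, had -5.70 ± 1.30, the transporter Slco1a1 -5.57 ± 0.87, with a tumor level well above background in only 1 of 8 tumors, and Susd4, a complement inhibitor, -4.41 ± 0.55. The list holds Cyp7b1 and Ugt2b1, which the lists above share. Of 24 female-biased genes, 5 were higher and 3 lower (median 0.12). The largest were Lpl, lipoprotein lipase (3.75 ± 0.62), Prom1, a membrane protein of bile duct and progenitor cells (3.56 ± 0.74), and the cytochrome Cyp2a4 (3.14 ± 0.82). Cyp17a1 belongs to this list and did not pass. Of 21 regulators of the growth hormone axis and of the sex pattern, 5 were lower and 0 higher (median -0.56). They included the growth factor Igf1 (-3.22 ± 1.78), its carrier Igfals (-1.89 ± 0.50) and the transcription factor Foxa1 (-1.43 ± 1.18). Of 12 lipid droplet genes listed beside Hsd17b13, 2 were higher and 0 lower (median -0.10), the droplet coat protein Plin3 (1.33 ± 0.34) and Hilpda, an inhibitor of droplet breakdown (1.11 ± 0.96).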

How the data were processed

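Per the labels' protocols, the miRVana kit and then the RNeasy kit were used to extract RNA, and a low-input kit to label it. Images were read with Agilent Feature Extraction (10.9 in the submitters' processing notes, 10.9.1.1 per the file headers). The deposited scanner files hold median signals and backgrounds as intensity, the authors' processed signals, also intensity, and a log10 ratio of red over green, which was not used. They also hold flags of other kinds, such as well above background, deposited as 0 or 1. No spot was saturated.

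Signals were corrected with normexp (offset 50) and normalized within arrays by loess, control and outlier spots at weight 0 and then left out. Spots of a probe were averaged. Levels are after loess and Aquantile. The 29292 probes tested had 4 or more arrays well above background in 1 channel, and the brightest probe stood for a gene. Ratios were tested against 0 with limma 3.58.1 in R 4.3.3 (data.table release 1.17.8), adjusted by Benjamini-Hochberg over all genes. Errors are SDs over 8 arrays, whose number limits the precision. Fold values are of the mean ratio.

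Probes were named through their accession in RefSeq on GRCm38.p6. Correlations used exact permutation in Python 3.11.15 (numpy 2.4.6, scipy 1.17.1, pandas 2.3.3), and promoters were aligned with Biopython 1.88, end gaps free. The limma fit and the channel correlation were tested on simulated data. The 10 genes and all lists were chosen with earlier results of these data known. Named are all 10 genes, up to 3 called genes of each list with the largest ratios in size, and the 5 genes nearest Hsd3b5. Others of a small count, and H6pd, Nr3c1 and the arrays' marker genes, were named after their values were seen. Some genes of these lists are not reported here by name. Alternatives were other background, offset, scaling, filter, probe and variance choices, array weights, a block for the slide row, and leaving out arrays 1 by 1. Leaving out arrays 1 and 2 together and each row of the slide alone were added after the data were seen.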

Additional observations from a re-analysis of the deposited data

Results flagged for a closer look

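Of 36 sets of 8 values examined (ratio, tumor level and control level of 12 probes), 1 held an array far from the others. The second Hsd17b13 probe had a control level of 7.35 on array 8, where the nearest other control was 6.93 and the lowest 6.56. The gap took 0.532 of the range, above the 95% limit of Dixon's test for 8 values. Chance alone marks about 1 in 20 sets. The brighter Hsd17b13 probe was highest in the same control, at 14.43. That control also held the skeletal muscle and adrenal transcripts described above, and their part in this value was not tested.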

How the results depend on the processing

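Each ratio was recomputed under 23 alternatives. The count of the 10 genes lower in tumor was 5 on row 1 of the slide alone, 7 in 4 alternatives, which added Hsd11b1, and 6 in the others. Hsd3b2, Hsd3b5, Hsd17b2, Srd5a1 and Akr1c6 passed in all 23, with ratios of -2.70 to -1.89, -3.63 to -3.41, -1.75 to -1.40, -2.98 to -2.63 and -3.93 to -3.53. Hsd3b3 missed the threshold in that row (-0.86). Hsd17b6 never passed (0.03 to 0.83). The count of the 10 genes higher was 1 in place of 0 with array weights (Hsd17b13, 1.18, adjusted p = 0.00148) and on row 1 alone (1.01), and ranged from 0 to 1 over the arrays left out in turn. Hsd11b1 passed with an offset of 16 (-1.24, adjusted p = 0.0478), with a robust trend (0.0462), and with the slide row as a block (0.0432), over a range of 0.0432 to 0.262. The ratio of Cyp17a1 fell below 0 with processed signals (-0.018), array weights (-0.44), row 1 alone (-0.51), and without array 7 (-0.27) or array 8 (-0.16), the range over arrays left out in turn being -0.27 to 0.51, with adjusted p between 0.484 and 0.996 throughout. Over all genes, 1531 were lower with processed signals in place of 850, and 849 were higher on row 2 alone in place of 1366, while row 1 alone, also of 4 arrays, gave 1630. Leaving out each array gave 836 to 902 lower and 1293 to 1533 higher. The channel correlation passed for 1 of the 10 genes over 8 arrays and for 0 without arrays 1 and 2. In the second case no gene of all those tested passed, as 6 arrays limit how small the exact p can be. Of 260 channel levels recomputed, 6 moved by more than 1 SD, all with processed signals. The cause of these changes was not tested. Each array sets a tumor against a control, so the test of the ratio already pairs the channels of an array. No further pairing was possible because the samples form 1 group.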
